A study of Mus musculus with 8 samples.

Results

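The 10 genes described here, Hsd3b5, Cyp4a12a, Cyp4a12b, Elovl3, Cyp2d9, Selenbp2, Slco1a1, Mup3, Mup20 and Mup21, are hepatic genes known to follow the pulses of growth hormone. They were taken by symbol from the 17810 genes with estimated read counts in the livers of 4 WT and 4 HKO mice, and all 10 were listed and had enough counts to be tested beside 12395 genes in all. HKO mice were miR-33 loxP/loxP animals that also carried Cre recombinase under the albumin promoter, which removes miR-33 in hepatocytes, and WT mice were their littermates. All were male, were put at 8 weeks of age on the CD-HFD, a high-fat diet lacking choline, which they ate for 3 months, and were fasted before sacrifice at 5 months of age, the stage of simple steatosis (MASL). Each library was made from whole liver and, by its title, from 1 mouse, so fewer cells of a type and less RNA per cell cannot be told apart. The miRNA was not analysed here, and the labels are the only source of the genotypes. The comparison asks how these genes differed in livers without hepatocyte miR-33.

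The pituitary of male rodents secretes growth hormone in separated pulses, whereas secretion in females is nearly continuous. Each pulse acts through the growth hormone receptor and JAK2, and the transcription factor STAT5B is phosphorylated and moves to the nucleus of the hepatocyte. The pulsatile pattern maintains a group of genes that are high in male liver and keeps another group, high in female liver, low. The members therefore include enzymes of steroid and fatty acid metabolism, a membrane transporter and secreted carrier proteins that are typical of the adult male.

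All 10 genes had a fitted level above WT in HKO livers, and Mup3 alone passed the test. The log2 fold changes, HKO over WT, ranged from 0.35 for Cyp4a12a to 3.97 for Hsd3b5 and had a median of 1.23, where the median over all genes tested was 0.01. Thus 1 of 10 members was called higher at an adjusted p under 0.05 by edgeR's quasi-likelihood test, beside 1.66% of all genes tested. For 5 members, Hsd3b5, Cyp4a12b, Selenbp2, Slco1a1 and Mup3, the lowest HKO value exceeded the highest WT value, which held for 5.34% of all genes tested. The number of calls moved with the model. DESeq2 called 7 members higher (all except Cyp4a12a, Mup20 and Mup21) beside 3.11% of all genes. The limma-voom model called 4 (Hsd3b5, Cyp4a12b, Slco1a1 and Mup3) beside 1.61%. The edgeR test without robust estimation, added after seeing the data, also called 4 (Hsd3b5, Cyp4a12b, Selenbp2 and Slco1a1) beside 1.57%.

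HKO replicate 3 stood above the other livers for most members. It had the highest level of all 8 livers for 8 of 10 members, whereas it was the highest liver for 13.9% of all genes tested. Without this liver the median log2 fold change of the members was 0.93, and edgeR called 0 of 10 higher after adjustment, beside 1.38% of the genes tested in that fit. The call lost was that of Mup3, whose log2 fold change was 0.91 with this liver and 0.87 without it. Likewise 0 members were called without WT replicate 1, WT replicate 3 or HKO replicate 4. In these fits edgeR called 272, 517 and 364 of all genes, respectively, in either direction, against 624 with all livers. Without HKO replicate 3, 6 of 10 members were higher in HKO at an unadjusted p under 0.05, beside 7.68% of all genes tested in that fit. Every member kept a fitted value above 0 without HKO replicate 3.

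**Figure D1:**
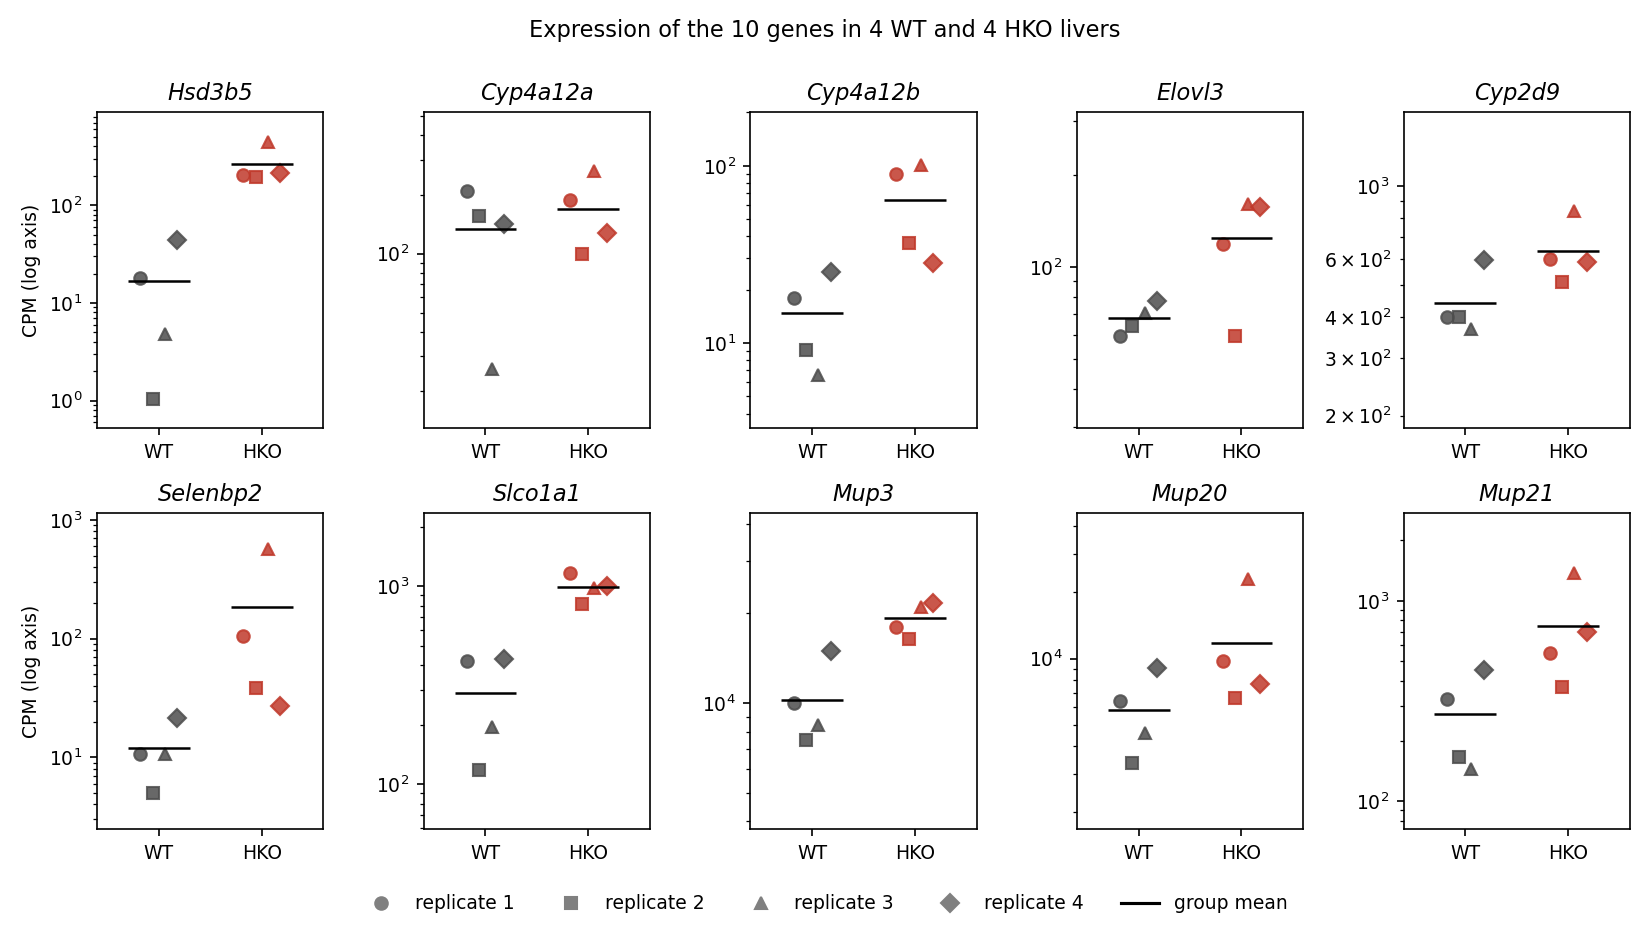
Expression of each gene in CPM (log axis) in 4 WT (grey) and 4 HKO (red) livers, where marker shapes are replicates and the line is the group mean. Hsd3b5, Cyp4a12b, Selenbp2, Slco1a1 and Mup3 show no overlap between the genotypes, and HKO replicate 3 (red triangle) is the top point in 8 of 10 panels.

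Levels are given in CPM, the counts of a gene divided by those of its library on a common scale (TMM), in the order of replicates 1 to 4. A level of 3 counts corresponded to 0.149 to 0.255 CPM, and every member was above it in every liver.

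Among the enzymes of steroid metabolism, Hsd3b5 showed the widest separation. Hsd3b5 belongs to the 3beta-hydroxysteroid dehydrogenase family, acts as a ketosteroid reductase in male mouse liver, and lies on chromosome 3 from 98618636 to 98645534 on the minus strand. Its level was 17.9, 1.05, 4.77 and 44.0 CPM in WT livers and 203, 193, 449 and 216 CPM in HKO livers. The WT livers thus differed among themselves by more than an order of magnitude, the lowest HKO liver was above the highest WT liver, and HKO replicate 3 stood above the other HKO livers. The means were 16.9 ± 19.5 CPM in WT and 265 ± 123 CPM in HKO (SD, n = 4 each), and edgeR's quasi-likelihood test gave a log2 fold change of 3.97 ± 1.11 (SE) with an adjusted p of 0.114. The adjusted p was 0.00146 with DESeq2 and 0.00721 with limma-voom.

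Cyp2d9, a testosterone-hydroxylating cytochrome P450 on chromosome 15 (82452377 to 82456827, plus strand), had a narrower difference. Its level was 400, 399, 367 and 598 CPM in WT livers and 599, 512, 840 and 588 CPM in HKO livers. WT replicate 4 lay within the HKO range, so the genotypes overlapped through that liver. The log2 fold change was 0.52 ± 0.19 (adjusted p = 0.158, edgeR). Without WT replicate 4 it was 0.71 with an adjusted p of 0.0321 in the same edgeR test, the only 1 of 8 fits leaving out a liver that passed. Without HKO replicate 3, the highest liver, it was 0.36 (adjusted p = 0.281, edgeR).

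No enzyme of fatty acid metabolism among the members passed the edgeR test. Cyp4a12a and Cyp4a12b are neighbouring omega-hydroxylases of fatty acids such as arachidonic acid, on chromosome 4 from 115299046 to 115332815 and from 115411624 to 115439034, both on the plus strand. Cyp4a12a had 209, 156, 25.8 and 141 CPM in WT livers and 188, 99.97, 263 and 127 CPM in HKO livers. Apart from the low WT replicate 3, the WT values lay within the HKO range, and the log2 fold change was 0.35 ± 0.64 (adjusted p = 0.828, edgeR). Cyp4a12b had 18.0, 9.14, 6.61 and 25.0 CPM in WT livers and 90.3, 36.7, 100.4 and 28.3 CPM in HKO livers. All HKO livers were above all WT livers for Cyp4a12b, although HKO replicate 4 exceeded WT replicate 4 by little. Its log2 fold change was 2.13 ± 0.62 (adjusted p = 0.124, edgeR).

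Elovl3, an elongase that makes very long chain fatty acids, lies on chromosome 19 from 46131897 to 46135694 on the plus strand. It had 59.6, 63.9, 70.8 and 77.1 CPM in WT livers and 118, 59.4, 160.1 and 157 CPM in HKO livers. The WT livers lay close together, 3 HKO livers were above them, and HKO replicate 2 was just below the lowest WT liver. The log2 fold change was 0.87 ± 0.30 (adjusted p = 0.162), and it was 1.10 without HKO replicate 2 (adjusted p = 0.00174), both from edgeR. The other 7 fits leaving out a liver did not pass (adjusted p between 0.223 and 0.328, edgeR), with 0.72 on the log2 scale without HKO replicate 3.

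Slco1a1 encodes an organic anion transporter of the hepatocyte's blood-facing membrane that takes up bile acids and steroid conjugates, and lies on chromosome 6 from 141907281 to 141946962 on the minus strand. It had 419, 119, 194 and 431 CPM in WT livers and 1173, 815, 977 and 1006 CPM in HKO livers. The genotypes did not overlap, and HKO replicate 3 was not the highest liver here. The log2 fold change was 1.77 ± 0.43 with all livers and 1.78 ± 0.49 without HKO replicate 3, and the adjusted p was 0.0719 and 0.145 in these edgeR fits. With DESeq2 the adjusted p was 0.000501 over all livers.

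Selenbp2, a selenium-binding protein, lies on chromosome 3 from 94693573 to 94704406 on the plus strand. It had 10.6, 4.96, 10.6 and 21.4 CPM in WT livers and 106, 38.4, 572 and 27.2 CPM in HKO livers. The genotypes did not overlap, but HKO replicate 3 was several times above every other liver and replicate 4 was near the top of the WT range. The log2 fold change was 3.97 ± 1.21 (adjusted p = 0.140) with all livers and 2.27 ± 0.67 (adjusted p = 0.173) without HKO replicate 3, both from edgeR. The mean in HKO was 186 CPM with that liver and 57.05 CPM without it, against 11.9 CPM in WT.

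**Figure D2:**
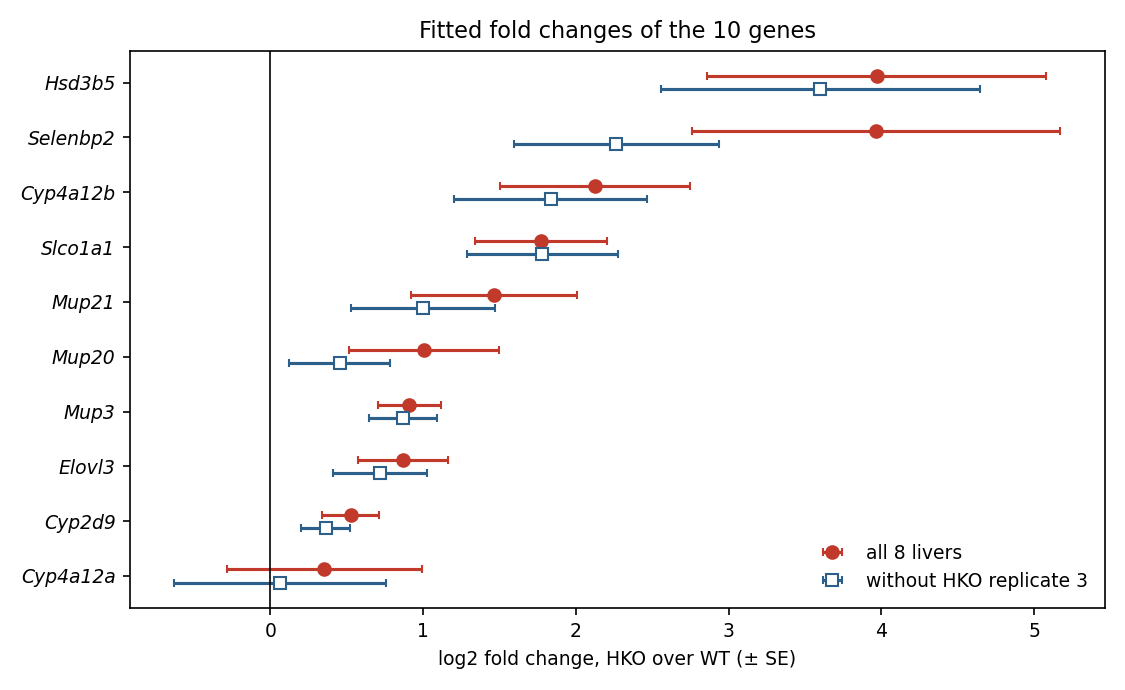
Log2 fold change, HKO over WT, of each gene from edgeR with its standard error, with all 8 livers (red circles) and without HKO replicate 3 (open blue squares). All points lie above 0; Selenbp2 went from 3.97 to 2.27 and Mup20 from 1.00 to 0.45, whereas Slco1a1 (1.77 and 1.78) and Mup3 (0.91 and 0.87) hardly moved.

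The major urinary proteins are lipocalins that the male liver secretes in large amounts and that carry pheromones into urine. The 3 members lie on the minus strand of chromosome 4, Mup20 from 62050235 to 62054117, Mup3 from 62083476 to 62087317 and Mup21 from 62147832 to 62150841. Mup3 had 10000.2, 7533, 8431 and 14964 CPM in WT livers and 17915, 16377, 20927 and 21696 CPM in HKO livers. The genotypes did not overlap and WT replicate 4 came closest to the HKO livers. Mup3 rose by 0.91 ± 0.20 on the log2 scale (1.88 times the WT mean), with an adjusted p of 0.0291 from edgeR's quasi-likelihood test, and it was called in 3 of 8 fits that left out 1 liver. The adjusted p over those edgeR fits ranged from 0.00268 to 0.0899, and it was 0.0681 without HKO replicate 3.

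Mup20 encodes darcin, the male pheromone protein of mouse urine. It had 6417, 3351, 4568 and 9046 CPM in WT livers and 9736, 6593, 22933 and 7655 CPM in HKO livers. The ranges overlapped, and HKO replicate 3 was far above the next liver. Its log2 fold change was 1.00 ± 0.49 (adjusted p = 0.321) with all livers and 0.45 ± 0.33 (adjusted p = 0.556) without that liver, both from edgeR. Mup21 had 323, 166, 145 and 449 CPM in WT livers and 549, 371, 1370 and 699 CPM in HKO livers. HKO replicate 2 lay within the WT range, and the log2 fold change was 1.46 ± 0.55 (adjusted p = 0.207, edgeR), or 1.00 ± 0.47 without HKO replicate 3.

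Per kilobase of the longest protein-coding transcript, the level of the members in WT livers spanned 3 orders of magnitude. Mup3 was first with 10398 ± 3369 CPM per kb, followed by Mup20 with 6299 ± 2671 and Mup21 with 400.1 ± 211 CPM per kb (mean ± SD, n = 4). The ranges of Mup3 and Mup20 overlapped, and Mup20 was above Mup21 in every WT liver. Cyp2d9 followed with 258 ± 61.7 CPM per kb, within the range of Mup21. Slco1a1 (74.5 ± 40.5), Cyp4a12a (54.9 ± 31.8) and Elovl3 (36.1 ± 4.10 CPM per kb) came next with overlapping ranges. Hsd3b5 (10.9 ± 12.6), Selenbp2 (6.92 ± 4.01) and Cyp4a12b (6.14 ± 3.53 CPM per kb) were the lowest in WT livers and did not differ beyond their spread. In HKO livers Hsd3b5, at 171 ± 79.2 CPM per kb, stood above Cyp4a12a (70.04 ± 29.9) and Elovl3 (65.8 ± 25.0), and Slco1a1 was at 254 ± 37.6 CPM per kb.

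Several members have close copies in the genome, and the deposited counts divide reads that match more than 1 gene by an expectation-maximization estimate. Windows of 75 bases along each GENCODE transcript were compared with the transcripts of all other genes. Elovl3 had 100% unique windows, Slco1a1 98.5% and Mup3 93.2%. The share was 89.7% for Mup21, 88.3% for Hsd3b5 and 83.3% for Cyp2d9. The least distinct were Selenbp2 with 65.4%, Cyp4a12a with 59.2%, Cyp4a12b with 58.7% and Mup20 with 56.4%. All windows that Cyp4a12a shared were shared with Cyp4a12b, those of Selenbp2 with Selenbp1, and those of Mup20 with the pseudogene Mup-ps19. With windows of 45 bases the share fell to 44.5% for Selenbp2, 47.1% for Mup20 and 48.1% for Cyp4a12a, and stayed at 100% for Elovl3.

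**Figure D3:**
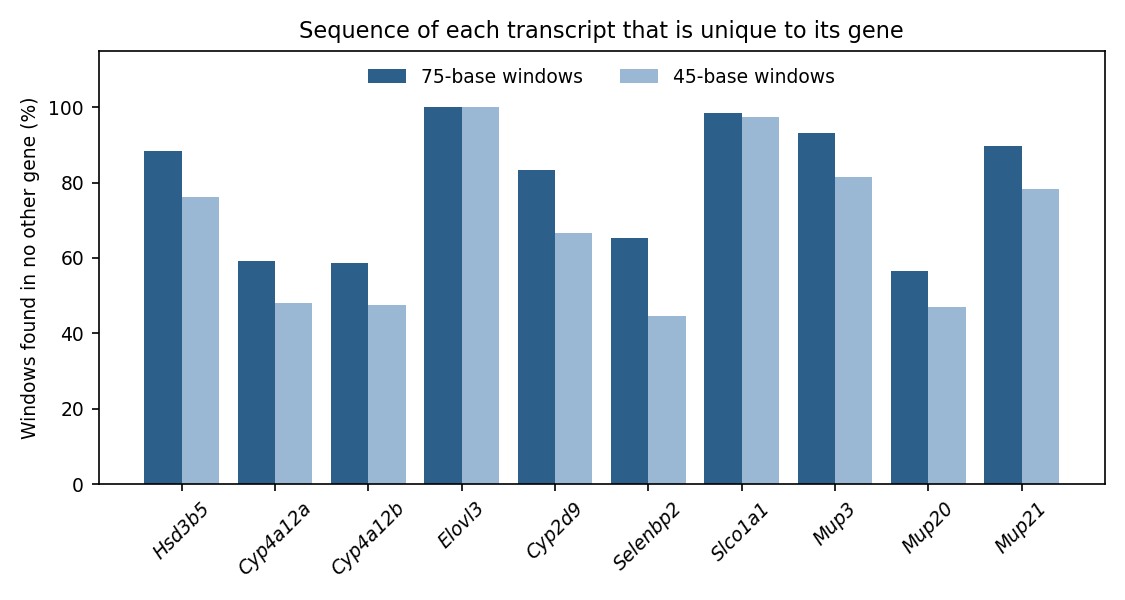
Percentage of windows of 75 bases (dark) and 45 bases (light) in the longest protein-coding transcript of each gene that occur in the transcripts of no other gene. Elovl3 is fully unique in both, and Cyp4a12a, Cyp4a12b, Selenbp2 and Mup20 are below 70% in both.

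The stretches in which the Cyp4a12 pair and the Selenbp pair can be told apart are short. The coding sequences of Cyp4a12a and Cyp4a12b, 1524 bases each, differ at 23 bases (98.5% identical) and contain an identical run of 342 bases. The 90 coding bases with the most differences within an exon, coding bases 661 to 750 in exon 6, are shown 5′ to 3′ from GENCODE transcripts on GRCm38, with the 7 differing bases in capitals. They lie at chr4:115326659-115326748 and chr4:115432912-115433001, both on the plus strand.
Cyp4a12a: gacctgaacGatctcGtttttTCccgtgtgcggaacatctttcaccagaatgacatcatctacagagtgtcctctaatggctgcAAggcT
Cyp4a12b: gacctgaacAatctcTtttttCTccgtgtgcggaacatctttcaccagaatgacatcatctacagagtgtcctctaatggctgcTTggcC

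Summed over both genes, the Cyp4a12 level was 227, 165, 32.4 and 166 CPM in WT livers and 279, 137, 364 and 155.3 CPM in HKO livers. For the sum, edgeR gave 0.67 ± 0.62 on the log2 scale (adjusted p = 0.632), and the genotypes overlapped. Cyp4a12b took 7.94%, 5.54%, 20.4% and 15.1% of the pair in WT livers and 32.4%, 26.9%, 27.6% and 18.2% in HKO livers. The share thus differed by 14.03 percentage points on average, with WT replicate 3 above HKO replicate 4 (two-sided exact permutation test, p = 0.0571, where the smallest possible p is 0.0286). How far the division of shared reads contributes to this share was not tested.

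Selenbp2 and Selenbp1 differ at 18 of 1416 coding bases (98.7% identical). The 90 coding bases with the most differences, coding bases 361 to 450 in exon 5, are shown in the same way with the 4 differing bases in capitals. They lie on the plus strand of GRCm38 at chr3:94698043-94698132 and chr3:94937955-94938044.
Selenbp2: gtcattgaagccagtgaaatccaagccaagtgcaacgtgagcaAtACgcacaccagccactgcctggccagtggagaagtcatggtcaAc
Selenbp1: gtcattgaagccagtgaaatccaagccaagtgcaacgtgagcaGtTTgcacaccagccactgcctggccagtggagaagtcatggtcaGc

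Selenbp1 did not follow Selenbp2 across livers. It had 135, 125, 107 and 119 CPM in WT livers and 111, 133, 93.2 and 110.3 CPM in HKO livers (log2 fold change -0.12, adjusted p = 0.610, edgeR). HKO replicate 3, the liver with 572 CPM of Selenbp2, was the lowest of the 8 for Selenbp1.

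In the Hsd3b family, Hsd3b3 rose by 0.56 ± 0.11 on the log2 scale (adjusted p = 0.0173, edgeR), and Hsd3b2 (0.25) and Hsd3b7 (0.01) did not pass. Hsd3b4, the closest coding relative of Hsd3b5 (95.2% identical), was named after its values were seen. It was at 0 to 0.46 CPM in WT livers and 0.936 to 2.25 CPM in HKO livers. Its counts were below the filter's minimum count of 10 in every WT liver, so the filter kept it only through the HKO livers. It passed with all livers (adjusted p = 0.0219, edgeR) and not without HKO replicate 3 (adjusted p = 0.0501, edgeR). With WT livers at or near 0 counts, no fold was read from this gene and no conclusion was drawn from its call. All windows of 75 bases that Hsd3b5 shared were shared with another gene, Gm10681 (11.7% of its windows), which was at 0 to 0.592 CPM in WT livers and 1.19 to 2.93 CPM in HKO livers. How reads were divided between Hsd3b5, Hsd3b4 and Gm10681 was not tested. All 7 Hsd3b genes summed had 463 to 627 CPM in WT livers and 762 to 1145 CPM in HKO livers, and this sum rose by 0.75 ± 0.14 on the log2 scale (adjusted p = 0.0122, edgeR on summed counts). For Cyp2d9 the other Cyp2d genes with at least 1 CPM had fitted values between -0.31 (Cyp2d40) and 0.33 (Cyp2d13), with Cyp2d10, Cyp2d22, Cyp2d26 and Cyp2d37-ps in between. Cyp2d11, the closest coding relative of Cyp2d9 (93.3% identical), was named after its values were seen. It had 0.165 to 0.796 CPM in WT livers and 0.540 to 1.89 CPM in HKO livers. The genotypes overlapped and it was not called (log2 fold change 1.32, adjusted p = 0.140, edgeR). The sum of 9 Cyp2d genes was at 0.22 ± 0.10 on the log2 scale (adjusted p = 0.266, edgeR). The other Cyp4a genes had fitted values of the opposite sign to the Cyp4a12 pair. Cyp4a14 was at 422 to 1207 CPM in WT livers and at 3.78 to 249 CPM in HKO livers, with its lowest value in HKO replicate 3, and Cyp4a10 was at 427 to 745 CPM in WT and 33.9 to 282 CPM in HKO. Neither passed the edgeR test (log2 fold changes -2.51 and -1.64, adjusted p = 0.271 and 0.210), although no HKO liver reached the WT range, as for 7.19% of all genes tested. Without HKO replicate 3 the fold of Cyp4a10 was smaller but passed (-1.29, adjusted p = 0.0120), whereas Cyp4a14 did not pass (-2.11, adjusted p = 0.0613, both edgeR). Cyp4a31 and Cyp4a32 had log2 fold changes of -1.65 and -0.75 with overlapping genotypes and were not called by edgeR (adjusted p = 0.121 and 0.100).

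The relatives of Elovl3 and Slco1a1 did not share their direction throughout. Elovl5, an elongase of polyunsaturated fatty acids, was at 1270 to 2372 CPM in WT livers and 402 to 1008 CPM in HKO livers. No HKO liver reached the WT range, and the log2 fold change was -1.24 ± 0.32 (adjusted p = 0.0735) with all livers and -1.03 (adjusted p = 0.0490) without HKO replicate 3, both from edgeR. Elovl1 (-0.27), Elovl2 (0.07), Elovl6 (-0.34) and Elovl7 (0.52) overlapped between genotypes and did not pass. Slco1a4, a related organic anion transporter, also overlapped and was at -0.53 on the log2 scale (adjusted p = 0.570, edgeR).

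The Mup family was listed with 22 genes, of which 19 were tested. All 19 had fitted values above 0, with a median log2 fold change of 2.73, and Mup3 was the only one called by edgeR. Beside those named elsewhere, the tested genes with a mean of at least 1 CPM were Mup1, Mup6, Mup9, Mup10, Mup11, Mup12, Mup14, Mup16, Mup19 and Mup22, with log2 fold changes from 0.65 (Mup22) to 3.83 (Mup11). Without HKO replicate 3 the median was 0.45, and Mup2, Mup8, Mup15, Mup17 and Mup18 had fitted values below 0. HKO replicate 3 was the highest liver for 18 of 19 tested Mup genes. Mup7 had 23431 CPM there, against 1118 to 1706 CPM in the other HKO livers and 49.1 to 1768 CPM in WT livers. All Mup genes together had 16753 to 38740 CPM in WT livers, 32442 to 43247 CPM in HKO replicates 1, 2 and 4, and 118940 CPM in HKO replicate 3. They took 11.3% of the counts of that liver and 1.74% to 4.06% of the others. The edgeR test of the summed Mup counts gave 1.26 ± 0.48 on the log2 scale and an adjusted p of 0.204, where Mup3 alone had 0.0291.

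**Figure D4:**
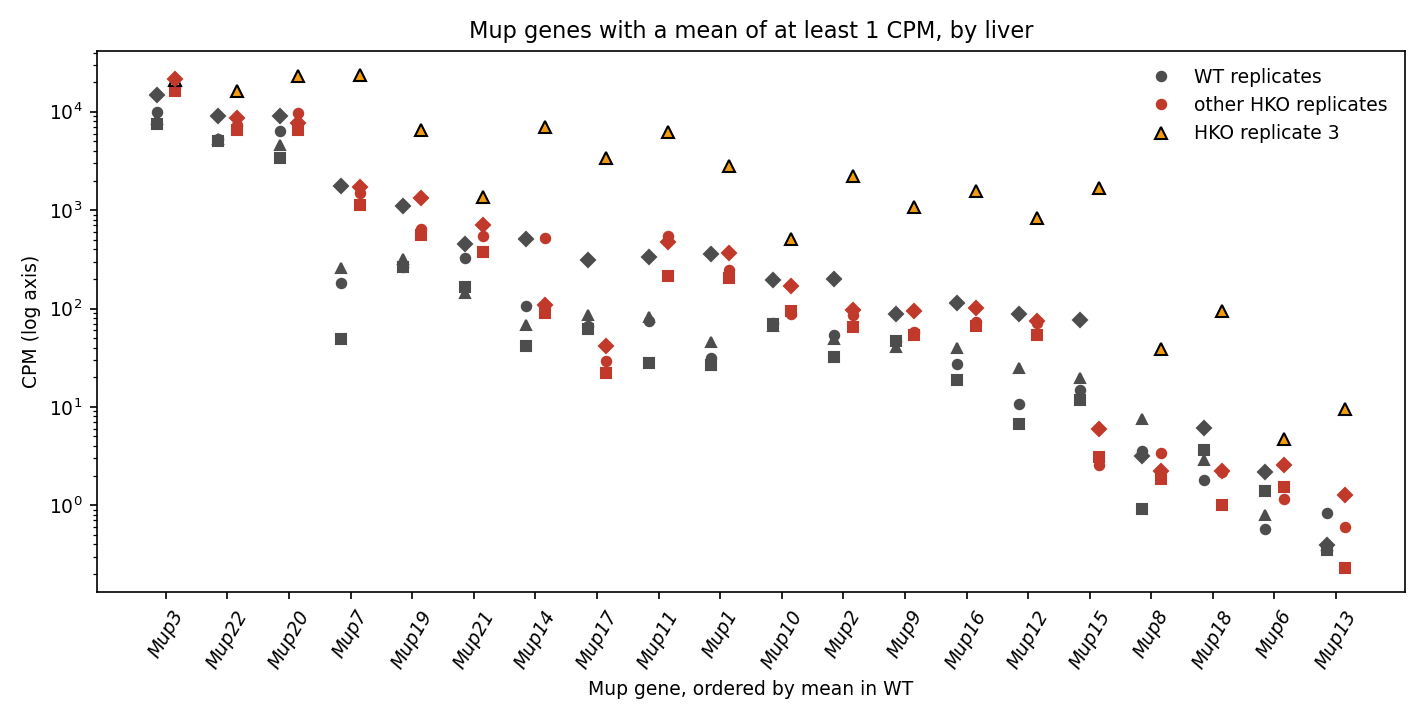
CPM (log axis) of the Mup genes with a mean of at least 1 CPM in each liver, ordered by the WT mean, for WT (grey), HKO replicates 1, 2 and 4 (red) and HKO replicate 3 (orange). HKO replicate 3 is the top point for nearly every gene, such as 23431 CPM for Mup7, whereas for Mup3 it lies with the other HKO livers.

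Mup3 and Mup21 are near copies of each other, with coding sequences that are 96.3% identical, whereas Mup20 is 89.1% identical to Mup3. The RefSeq table of promoters on GRCm38.p6 held 6 of the 10 members (Hsd3b5, Cyp2d9, Selenbp2, Slco1a1, Mup3 and Mup21). The 250 bases before the start of Mup3 (chr4:62087318-62087567) and of Mup21 (chr4:62150842-62151091), both on the minus strand, are shown 5′ to 3′ because the genes are near copies of which Mup3 was called and Mup21 was not, a difference between genes that was not tested. Capitals mark bases that differ or have no counterpart in an alignment of the pair, which matched 228 of 244 aligned bases (93.4%).
Mup3: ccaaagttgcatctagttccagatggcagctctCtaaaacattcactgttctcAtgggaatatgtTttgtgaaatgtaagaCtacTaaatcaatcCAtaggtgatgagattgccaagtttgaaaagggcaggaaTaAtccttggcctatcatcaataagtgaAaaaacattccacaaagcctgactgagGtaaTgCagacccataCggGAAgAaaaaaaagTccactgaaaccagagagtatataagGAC
Mup21: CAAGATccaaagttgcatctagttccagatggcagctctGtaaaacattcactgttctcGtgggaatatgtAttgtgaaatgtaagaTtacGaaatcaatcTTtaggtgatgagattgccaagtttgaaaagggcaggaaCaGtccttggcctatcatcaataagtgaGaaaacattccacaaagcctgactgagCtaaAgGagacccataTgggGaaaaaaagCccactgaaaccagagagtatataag

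The palindromic STAT5 consensus TTCNNNGAA, which reads the same on both strands, was searched in the 250 bases before each start. It was found in 0 of the 6 member promoters and in 7.02% of all 32851 promoters of that table. This describes only these letters in this window and says nothing of STAT5 binding elsewhere.

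The members varied together between livers of the same genotype. After each genotype mean was removed, Pearson's r of log2 CPM over the 8 livers was above 0 for 45 of 45 pairs of members, with a median of 0.65, where 49.96% of all pairs of tested genes were above 0. The highest values were 0.93 for Selenbp2 with Mup20 and 0.92 for Hsd3b5 with Slco1a1, and the lowest was 0.18 for Cyp4a12a with Elovl3. These are descriptions over 8 livers whose values share the same libraries. Some pairs also have reads that can match both genes, such as Cyp4a12a with Cyp4a12b (r = 0.71) and Mup3 with Mup21 (0.82). Among WT livers replicate 4 had the highest level for 9 of 10 members, whereas it was the highest WT liver for 26.8% of all genes tested. Among HKO livers replicate 3 was the highest for 8 members and replicate 2 the lowest for 8. WT replicates 2 and 3 held the lowest value of all 8 livers for 5 and 4 members, respectively.

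The 5 genes whose pattern within genotypes was most like the mean of the members, among 9011 other genes with at least 5 CPM, were Pdilt (r = 0.96), Mfsd14b (0.95), Prkx (0.94), Ints12 (0.94) and Krcc1 (0.94), over 8 livers. None of these passed the edgeR test between genotypes, with log2 fold changes between -0.32 and 0.61.

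Genes that differ between the sexes but are not members were described beside them. Of 25 other male-biased genes, 24 were tested, 22 had fitted values above 0, and 5 rose (C8b, Cela1, Egfr, Slc22a28 and Ugt2b1, edgeR), beside 1.66% of all genes tested, with a median log2 fold change of 0.96. Without HKO replicate 3 the median was 0.46 and 2 were called higher, beside 1.38% of the genes tested in that fit. C8b, a component of the complement attack complex, rose by 1.97 ± 0.29, from 61.99 to 128 CPM in WT livers to 288 to 554 CPM in HKO livers (adjusted p = 0.0123, edgeR). Serpina1e, a protease inhibitor, had 82.4 to 783 CPM in WT and 662 to 7529 CPM in HKO and did not pass (adjusted p = 0.177, edgeR). As for the members, HKO replicate 3 was the highest liver for 18 of these 24 genes and WT replicate 4 the highest WT liver for 22 of 24. The members and these genes rest on the same livers and are not independent of each other. Moxd1 and Ugt2b38, named after their values were seen, had 111 and 136 CPM in HKO replicate 3 and no more than 0.0675 and 3.15 CPM elsewhere.

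Female-biased genes had mostly negative fitted values. Of 28 named genes, 19 were tested, 13 had fitted values below 0, and 4 fell (Cyp2a4, Cyp2a22, Slc22a27 and Tox, edgeR), beside 3.37% of all genes tested, with a median log2 fold change of -1.05. Cyp2a4, a female-biased steroid hydroxylase, was at 9.73 to 37.9 CPM in WT livers and 0.676 to 4.09 CPM in HKO livers (log2 fold change -3.51 ± 0.67, adjusted p = 0.0349, edgeR). The transcription factor Tox fell from 12.6 to 17.1 CPM in WT to 7.66 to 10.5 CPM in HKO (log2 fold change -0.70 ± 0.14). For 9 of the 19 genes every HKO liver was below every WT liver, as for 7.19% of all genes tested. These included Cyp2b9, Acot3 and Abcd2, which did not pass the test. Prlr, the prolactin receptor, overlapped (log2 fold change 0.11). The overlap of Prlr rested on HKO replicate 3, at 115.001 CPM, since the other HKO livers had 283 to 310 CPM and the WT livers 211 to 264 CPM. In the fit without HKO replicate 3, edgeR called 2 female-biased genes lower (Slc22a27 and Tox), beside 2.4% of all genes tested in that fit. It then also called 1 higher, beside 1.38%. This was Cyp2c40, named after its values were seen, at 5.54 to 8.24 CPM in WT livers, 10.98 to 11.8 CPM in the other HKO livers and 3.49 CPM in HKO replicate 3 (log2 fold change 0.65 without that liver, adjusted p = 0.0408, edgeR). HKO replicate 3 was the lowest liver for 15 of 19 genes, where it was the lowest for 14.2% of all genes tested, and WT replicate 4 was the lowest WT liver for 13 of 19, where it was for 27.2% of all genes. Sult1e1, an estrogen sulfotransferase named after its values were seen, had 75.8 CPM in HKO replicate 3 and 0.248 to 2.50 CPM in the other livers.

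**Figure D5:**
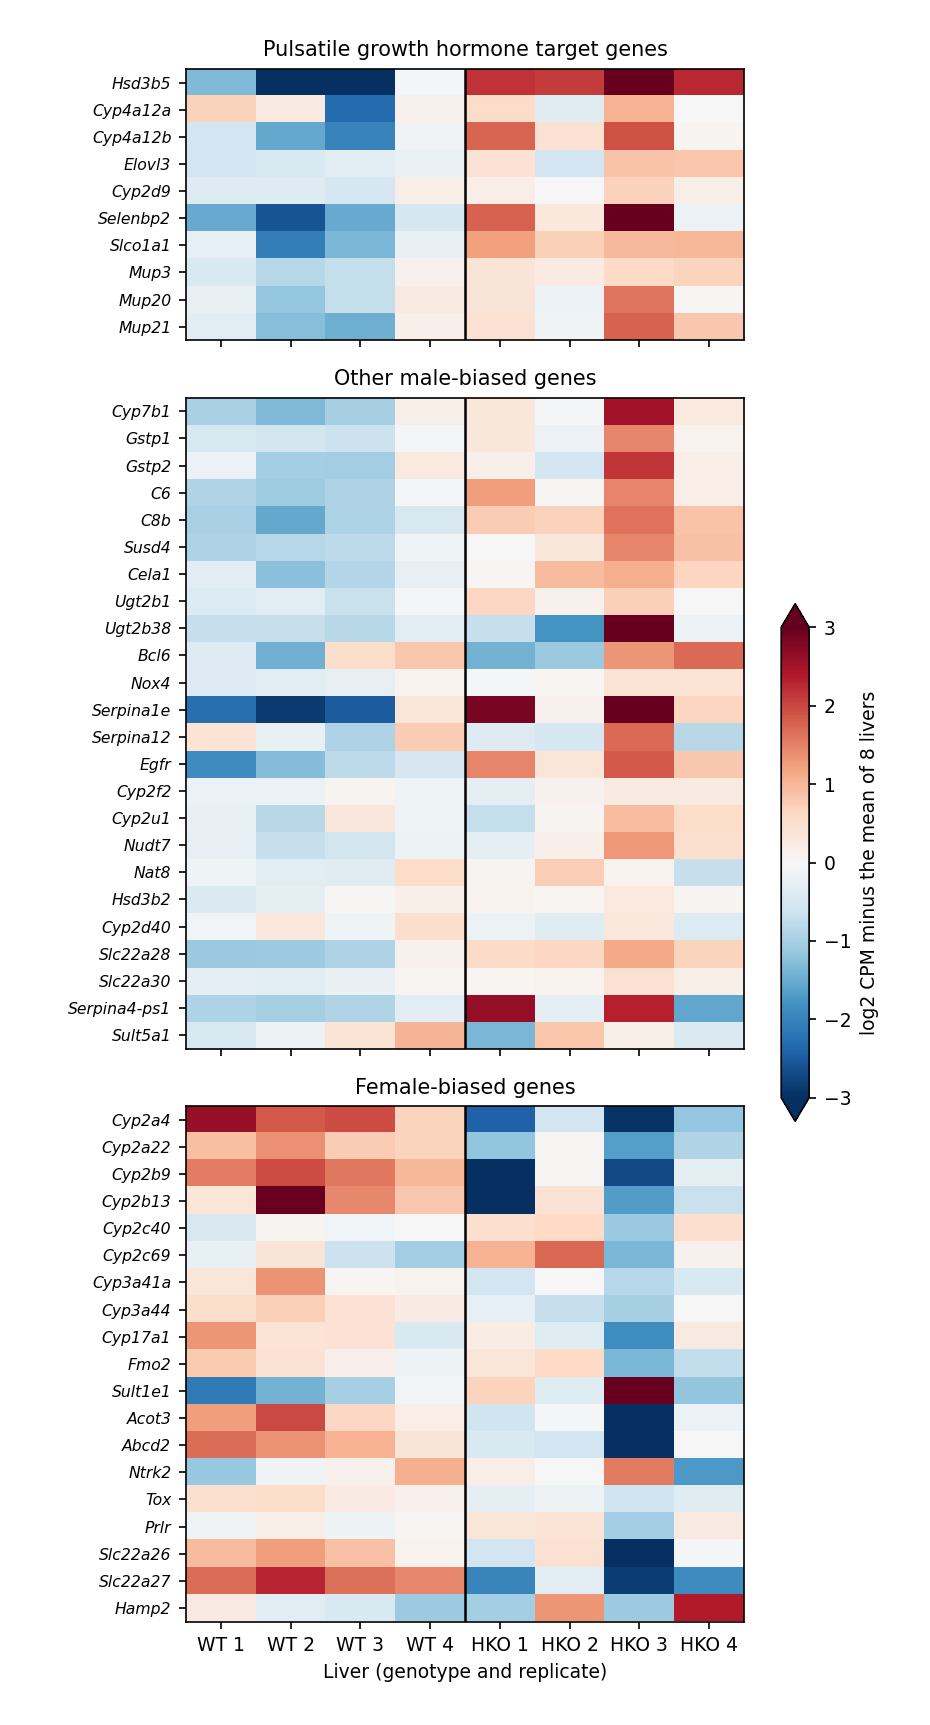
Log2 CPM of each tested gene minus its mean over the 8 livers, for the 10 growth hormone target genes, 24 other male-biased genes and 19 female-biased genes (rows) in each liver (columns; WT left, HKO right of the line), with the colour scale ending at -3 and 3. HKO replicate 3 is highest for 8 of 10, 18 of 24 and 2 of 19 genes of these groups and lowest for 0, 0 and 15, respectively.

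Most genes of the growth hormone signalling pathway itself did not pass the test. Of 22 genes 21 were tested, 3 rose (Stat3, Igfals and Hnf4a, edgeR, beside 1.66% of all genes) and the median log2 fold change was 0.06. Of these, Stat3 was called in each of the 8 edgeR fits leaving out a liver, Hnf4a only without HKO replicate 3 and Igfals only without HKO replicate 4. Stat5a did not pass with all livers but was called lower without HKO replicate 3 (log2 fold change -0.72, adjusted p = 0.0284, edgeR), and Igfbp3, at -0.71 in edgeR (adjusted p = 0.159), was called lower by DESeq2 (adjusted p = 0.0420). Both were named after their values were seen. Igfals, the acid-labile subunit that carries IGF1 in blood, rose by 0.42 ± 0.11 (adjusted p = 0.0472, edgeR). The growth hormone receptor Ghr had 1051 to 1316 CPM in WT and 1123 to 1506 CPM in HKO (log2 fold change 0.12 ± 0.12), and Igf1 had 861 to 1265 CPM in WT and 844 to 1373 CPM in HKO (0.14 ± 0.17), and neither passed. Stat5b, Socs2 and Cish, named after their values were seen, had log2 fold changes of 0.00 ± 0.13, 1.14 ± 0.59 and -0.01 ± 0.95. Socs2, a feedback inhibitor induced by growth hormone, had 17.4, 23.0, 7.96 and 6.77 CPM in WT livers and 31.4, 18.1, 56.7 and 14.6 CPM in HKO livers, with the highest value in HKO replicate 3. Of 19 circadian clock genes 18 were tested and 0 were called by edgeR, DESeq2 or limma-voom, with 1 at an unadjusted p under 0.05 in edgeR beside 19.8% of all genes, or 4 beside 17.4% without HKO replicate 3. Their summed level was 1052 to 1095 CPM in WT and 1095 to 1176 CPM in HKO. Of 16 acute phase genes 4 rose (Fga, Fgb, Fgg and Itih3, edgeR), beside 1.66% of all genes, with a median log2 fold change of -0.01. Their summed level was 15407 to 18847 CPM in WT and 19656 to 26559 CPM in HKO, highest in HKO replicate 3. That liver was the highest of the 8 for 7 of 16 acute phase genes and WT replicate 4 the highest WT liver for 10 of 16, where the shares over all genes were 13.9% and 26.8%. Leaving out HKO replicate 3, edgeR called 2 acute phase genes higher, beside 1.38% of the genes in that fit.

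Other features of the libraries also differed between livers. Totals ranged from 12174339 to 18735785 counts per liver, with HKO replicate 3 the deepest. WT replicate 3, the lowest of all 8 livers for 4 members, came next with 18319736 counts. The last number in the name of each library separates the genotypes completely, and the labels do not say what it numbers. Anything it marks cannot be told apart from genotype. The other running numbers in these names do not separate the genotypes in this way. Hepatocyte markers were abundant in every liver, with a summed level of 109928 to 143185 CPM in WT and 106119 to 163221 CPM in HKO, and 7 of 12 rose (Serpina1c, Ahsg, Fgb, Cps1, Ass1, Tat and Hnf4a, edgeR), beside 1.66% of all genes tested. The 6 cholangiocyte markers summed to 111 CPM in HKO replicate 2, the HKO liver that was lowest for 8 members, and to 31.0 to 53.3 CPM in the other livers, and Krt19 was at 16.9 CPM there and at most 1.07 CPM elsewhere. Macrophage markers were also lowest in HKO replicate 2, at 42.5 CPM, against 55.9 to 147 CPM in the other livers. The summed endothelial markers were 59.2 to 192 CPM in WT and 98.2 to 222 CPM in HKO. WT replicate 4, the highest WT liver for 9 of 10 members, was the lowest WT liver for 6 of 6 endothelial markers. It was the lowest WT liver for 27.2% of all genes tested. The HKO livers did not show this pattern. HKO replicate 2, the lowest HKO liver for 8 members, was also the lowest for 4 of 6 endothelial markers (2839 of 12395 genes tested). The summed endothelial level was 98.2 CPM there and 104 CPM in HKO replicate 3, the highest HKO liver for 8 members. The summed stellate cell markers were 371 to 530 CPM in WT and 301 to 414 CPM in HKO. Of these, 2 of 7 (Col1a1 and Col3a1) fell in edgeR with and without HKO replicate 3, beside 3.37% and 2.4% of the genes tested in these fits. Lymphocyte and neutrophil markers did not exceed 8.41 CPM in sum. The part of these features in the level of the members was not tested.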

How the data were processed

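Liver RNA from 4 WT and 4 HKO male mice was sequenced. The authors deposited estimated counts per gene, made with Partek's expectation-maximization quantification and not normalized. The submitters' processing notes name STAR and Partek; versions, annotation and genome build are not given in the sources used here. Listed coordinates were those of RefSeq GRCm38.p6 for 9 of 10 members (all but Mup20), and the last base is given as 1 before the listed stop. The labels name a small RNA kit as well as rRNA depletion, and both 45 cycles and 75-base reads, so library type and read length are uncertain. Genotype and replicate number came from the labels. Each sample has its own mouse number as title, but the descriptions of the 4 WT samples all begin with the number of WT replicate 1; each replicate was taken as 1 mouse by its title. If WT samples shared an animal, the p-values would measure only the spread between these samples.

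Estimated counts were rounded to whole numbers. Genotypes were compared with edgeR 4.0.16 in R 4.3.3 (TMM, default filter with minimum count 10, robust quasi-likelihood test), with Benjamini-Hochberg adjustment over 12395 genes and a threshold of 0.05. Log2 CPM used a prior count of 2. The comparison was repeated with DESeq2 1.42.0, with voom weights in limma 3.58.1, other scalings and filters, summed paralogs, the replicate number as a block, each liver left out in turn and, after seeing the data, the legacy method and no robust estimation. The CPM that 3 counts amount to in a library depends on its depth, and as a detection floor it allows for counting error only. Other steps used Python 3.11.15, pandas 2.3.3 and matplotlib 3.10.9.

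The members and gene lists were chosen with earlier results of these data known. The text names all members, the called genes of each list described, with at most 4 abundant genes that were not called, the tested paralogs with a mean of at least 1 CPM, and the 5 genes most like the members; a few others are marked as chosen after their values were seen. On simulated counts for this comparison (12395 genes, 200 changed), edgeR recovered 100% of genes changed by 2 on the log2 scale. It recovered 92% of those changed by 1, with 5.42% false calls. DESeq2 recovered 100% and 88%, with 8.74% false calls, and limma-voom 100% and 88%, with 5.05%. How these rates apply to members that varied widely between livers was not tested. Hsd3b5 and Selenbp2 each had a log2 fold change of 3.97 and were not called by edgeR with all livers.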

Additional observations from a re-analysis of the deposited data

Results flagged for a closer look

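In 4 of 32 groups of 4 livers that were tested for a value far from the rest, the highest liver stood apart from the other 3. Chance alone gives such a value in about 1 of 20 groups of independent, normally distributed values, whereas these groups share 8 libraries and were tested in CPM. On the log2 scale, tried after seeing the data, 1 of the 4 values (Hsd3b5) still stood apart. Hsd3b5 in HKO replicate 3 had 449 CPM, and the other HKO livers had 193 to 216 CPM. Selenbp2 in HKO replicate 3 had 572 CPM, against 27.2 to 106 CPM in the other HKO livers. All Mup genes summed reached 118940 CPM in HKO replicate 3, against 32442 to 43247 CPM. Cyp2d9 in WT replicate 4 had 598 CPM, and the next highest WT liver had 400.5 CPM. Total counts and scaling factors of the livers held no such value.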

How the results depend on the processing

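Over 17 alternatives that fit the members singly, their log2 fold changes kept a value above 0 in 170 of 170 cases; 146 stayed on the same side of the threshold, 17 passed it where the reported fit did not, and 7 no longer passed it, all 7 for Mup3. The number of members called was 7 with DESeq2, 4 with limma-voom, 4 without robust estimation and 0 without an expression filter, where Mup3 had an adjusted p of 0.0512 in edgeR; the cause was not tested. It was 0 to 2 when 1 liver was left out: 0 without WT replicates 1 or 3 or HKO replicates 3 or 4, 1 (Slco1a1) without WT replicate 2, 1 (Mup3) without HKO replicate 1, and 2 without WT replicate 4 (Cyp2d9 and Mup3) or HKO replicate 2 (Elovl3 and Mup3). With paralogs summed, 1 of 7 units was called, the sum of all Hsd3b genes. Other male-biased genes called higher numbered 10 with DESeq2, 8 with limma-voom and 2 without an expression filter. They numbered 1 to 8 when 1 liver was left out, and female-biased genes called lower numbered 0 to 4. The fits leaving out a liver called 212 to 598 of all genes in either direction, against 624 with all livers. The numbers of growth hormone signalling and acute phase genes called higher ranged from 1 to 3 and from 0 to 5 over all alternatives, and those called lower from 0 to 1 in both lists. Scaling to total counts shifted the median of all genes by -0.09. With the replicate number as a block, 2 members were called (Slco1a1 and Mup3); same-numbered livers did not deviate together (r between -0.15 and 0.01), none of the 4 WT livers correlated best with the HKO liver of its own number, and the numbers mark different mice.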
